A study of Mus musculus with 2 samples.

Results

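The TRIM (tripartite motif) genes of mouse CT26 cells were compared between cells treated with decitabine (DAC) and control cells. The members were all genes whose GENCODE M21 symbol is Trim, a number and at most 1 letter, with Trim28 left out. Of 67 such symbols in the annotation, 55 had values in the 2 libraries, of 24223 genes in all, and 12 were not analysed here. CT26 is a colorectal cancer line of BALB/c mice, and DAC is a cytosine analog that inhibits DNA methyltransferases. The DAC library came from CT26 cells exposed to 1 μM DAC on 3 days, with 24 h between doses, and then kept 24 h without the drug. The control library (Ctrl) came from CT26 cells handled in parallel without DAC. With 1 library a group, no difference has a replicate check, no test across samples was possible and no p-value is given.

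TRIM proteins carry a RING finger, 1 or more B-boxes and a coiled coil, followed by a C-terminal region that binds the substrate. The RING finger recruits an E2 enzyme, so that most family members act as E3 ubiquitin ligases. Many members with a PRY-SPRY domain at the C terminus act in antiviral defence, by binding viral capsids or by tagging sensors of foreign nucleic acid and their adaptors. Others read histone marks, bind RNA or microtubules, or serve striated muscle.

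The DAC library held 35163420 counts and the control library 34221886. TMM factors of edgeR were used to scale counts to CPM (counts per 1e6 of the scaled library), in which 1 CPM stood for 37.6 counts in DAC and 32.0 in control. A gene was tested when it had at least 1 CPM in either library. It was called higher or lower by a 2-fold rule, with a ratio of DAC to control of at least 2 or at most 0.5 and an exact (Clopper-Pearson) 95% interval that excluded 1. These intervals, given in parentheses after the ratios, cover counting error only. Of the epithelial markers, Krt8 and Cdh1 were at or near 0 in the control, with 5 and 0 counts, against 4445 and 9 in DAC. Krt18, in contrast, stood at 56.1 CPM in control and 95.2 CPM in DAC. The mesenchymal marker Vim stood at 1128 CPM in control and 1297 CPM in DAC. Of the blood markers, Ptprc had 3 and 0 counts and Lyz2 had 31 and 17.

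Most tested TRIM genes differed by less than 2-fold between DAC-treated and control CT26 cells. The few that passed the 2-fold rule were genes of low or middle abundance. Of the 55 members, 40 were tested and 15 stayed under 1 CPM in both libraries. The rule called 5 members higher in DAC (12.5% of those tested), namely Trim71, Trim65, Trim66, Trim54 and Trim47. Among all 13545 genes tested, the share called higher was 10.8%. Only Trim40 was called lower (2.50%), where the share of all genes was 5.29%. Both shares of the family were thus near those of all genes. The ratio was above 1 in 27 of the 40 tested members (67.5%), compared with 48.7% of all tested genes. The median log2 ratio was 0.25 for the members and -0.02 for all tested genes. The summed level of the 55 members was 2266 CPM in control and 2265 CPM in DAC. On this TMM scale the gains of some members and the losses of others left the total almost level. The sum over all genes on the same scale was 1068644 CPM in control and 935766 CPM in DAC, so the level total depends on the scaling.

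**Figure D1:**
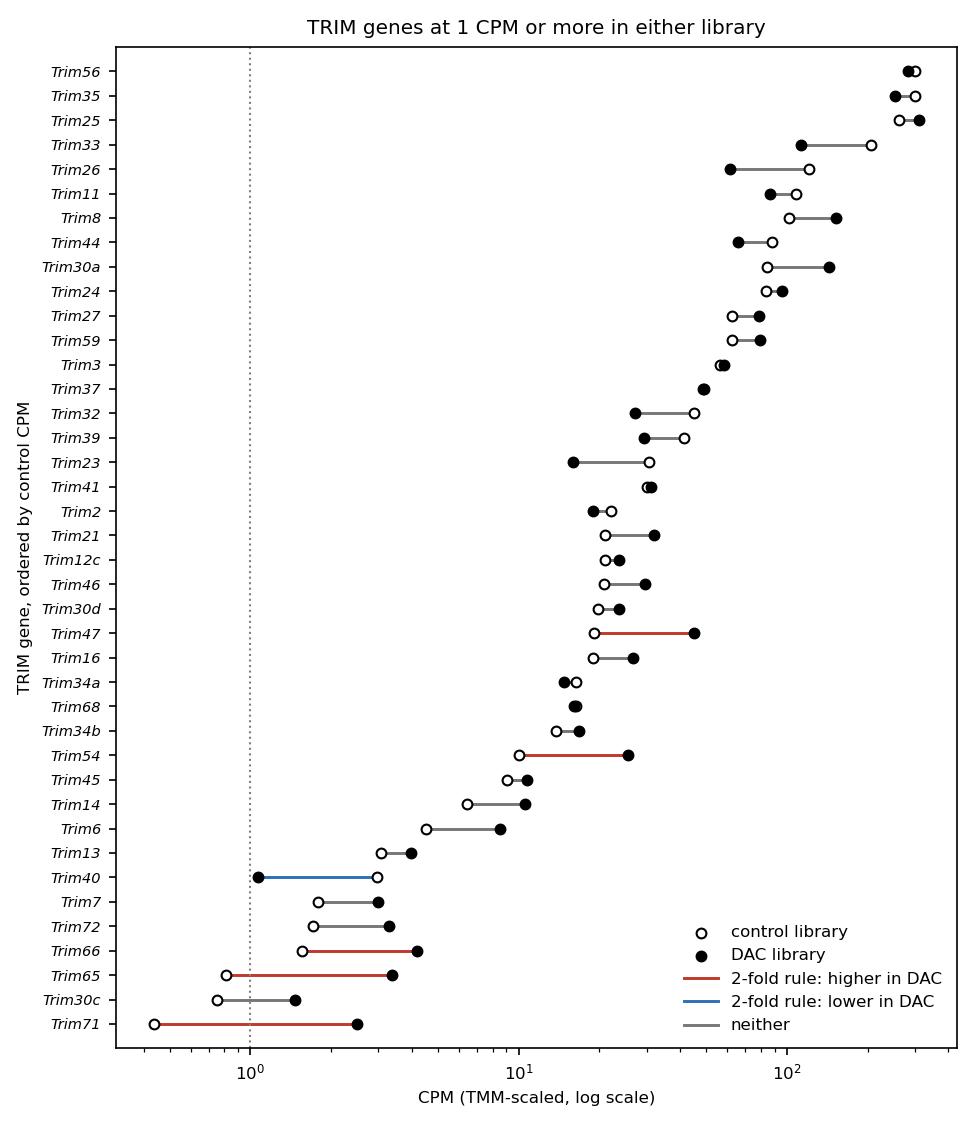
CPM on a log scale for the 40 tested TRIM genes in the control library (open points) and the DAC library (filled points), ordered by control CPM, with 1 library a group and no error bars. The 5 genes called higher (red lines) lie at or under 19.1 CPM in the control, and Trim56, Trim35 and Trim25 are the most counted members in both libraries.

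The abundant members held a large part of the family's RNA, and none of those at a mean of 50 CPM or more was called. Per kilobase of exon (CPM per kilobase), Trim35 ranked first in both libraries, at 64.8 in control and 55.0 in DAC, followed by Trim25 at 45.5 and 53.9. Trim56 at 32.3, Trim11 at 30.1 and Trim8 at 27.5 came next in control. In DAC the next places went to Trim8 at 41.0 and Trim30a at 34.9. Trim33 moved from place 6 in the control to place 13, and Trim26 from 9 to 16. The members' order at the top was thus largely kept, with Trim8 and Trim30a above Trim56 and Trim11 after DAC.

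Abundance went together with the size and direction of the ratios, in the family as in all genes. Under a mean of 5 CPM, 29.7% of all tested genes were called higher and 9.91% lower, and of the 8 members there 3 were higher and 1 lower. Between 5 and 50 CPM, the shares of all genes were 8.13% and 3.87%, and of 19 members 2 were higher and none lower. At 50 CPM or more, 2.03% and 4.03% of all genes were called, and none of the 13 members was. The median log2 ratios of members in the 3 ranges were 0.95, 0.24 and 0.05, beside 0.32, 0.04 and -0.17 for all genes. A gene under 1 CPM in 1 library was tested only through the other, so the minimum itself favours large ratios in the lowest range. Trim71 and Trim65, for instance, passed it only through DAC. The bounds of these ranges were chosen after the values were seen.

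**Figure D2:**
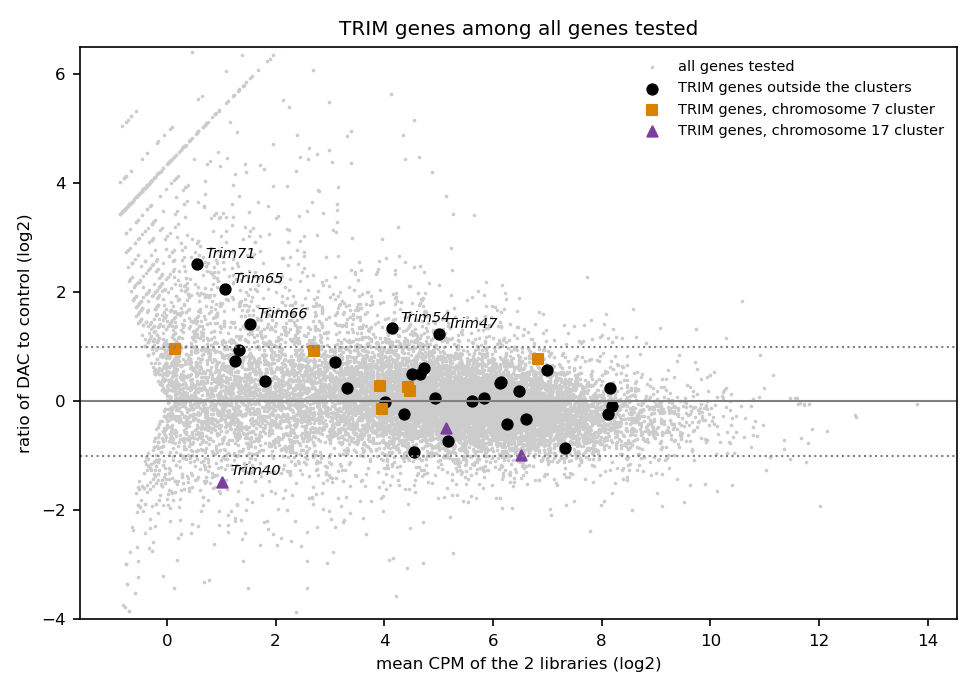
Log2 ratio of DAC to control against the log2 mean CPM of the 2 libraries, for all 13545 tested genes (gray) and the 40 tested TRIM genes by location, with dotted lines at 2-fold and 39 genes beyond the vertical axis. TRIM genes lie within the cloud of all genes, the 3 called genes with the highest ratios (Trim71, Trim65 and Trim66) at low CPM, and the 3 chromosome 17 genes lie under the zero line.

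Trim71 had the highest ratio of the tested members. It encodes LIN41, an NHL-repeat protein of stem cells that binds mRNA and is a target of the let-7 microRNAs (chromosome 9, 114507133 to 114564369, GRCm38). It had 14 counts in control and 94 in DAC, or 0.437 and 2.50 CPM, a ratio of 5.72 (3.25 to 10.9). Its level stayed low in DAC, at 0.268 CPM per kilobase. The other NHL-repeat members were not called. Trim2, which regulates neurofilament in neurons, had 710 counts in each library, 22.2 and 18.9 CPM. Trim3, its close relative, had 56.2 and 58.2 CPM. Trim32, an E3 ligase mutated in a human limb-girdle muscular dystrophy, had 45.2 and 27.2 CPM, a ratio of 0.603 (0.556 to 0.654).

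Trim65 and Trim47, which lie side by side on the minus strand of chromosome 11, were both higher in DAC. Trim65 attaches ubiquitin to MDA5, the sensor of long double-stranded RNA, and Trim47 is a PRY-SPRY member. Trim65 (116121846 to 116131128) had 26 counts in control and 127 in DAC, 0.812 and 3.38 CPM, a ratio of 4.16 (2.71 to 6.62). Trim47 (116105752 to 116127210) had 613 and 1689 counts, 19.1 and 44.9 CPM, a ratio of 2.35 (2.14 to 2.58). Their exons overlap on the same strand over 8.23% of those of Trim47 and 3.82% of those of Trim65. The sources used here do not say how reads in the overlap were assigned. Because Trim47 had far more counts, such reads could make up much of the count of Trim65, and their part in it was not tested. Among the called genes, Trim47 was the one with the most counts.

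Trim66 (TIF1δ) belongs to the members with a PHD finger and a bromodomain, which read histone tails in chromatin. It was higher in DAC, with 50 counts in control and 157 in DAC, 1.56 and 4.18 CPM, a ratio of 2.68 (1.94 to 3.76). The gene lies on chromosome 7 (109449006 to 109508134), outside the cluster described further on. Its relatives were far more abundant and were not called. Trim24 (TIF1α), a coregulator of nuclear receptors, had 83.7 and 95.6 CPM. Trim33 (TIF1γ), which acts in SMAD signalling, had 206 CPM in control and 113 CPM in DAC, a ratio of 0.548 (0.527 to 0.569). The group therefore held a scarce member that was higher and an abundant member whose ratio was well below 1.

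Trim54, known from muscle, was higher in DAC. Its protein (MuRF3) associates with microtubules of striated muscle, and the gene had 322 counts in control and 957 in DAC, 10.1 and 25.5 CPM, a ratio of 2.53 (2.23 to 2.88). It lies on chromosome 5 (31116712 to 31137630). Trim72 (MG53), which takes part in membrane repair of muscle fibres, had 55 and 123 counts, and its ratio of 1.91 (1.38 to 2.67) was not called. Trim63 (MuRF1), known from muscle atrophy, had 0 and 4 counts. Its counts were too few to give a direction. Both muscle markers analysed were higher by the rule, but they passed the CPM minimum only through DAC. Ckm had 0 counts in control and 220 in DAC, and Acta1 had 4 and 40. Whether the values of Trim54 and Trim72 belong to a wider muscle-type expression was not tested. Of the exons of Trim54, 26.6% overlap Gm15469 on the opposite strand, which had 2 and 14 counts. For Trim72 the share was 27.6%, with Gm15533, which had 46 and 64 counts.

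The calls of Trim71 and Trim65 held under the alternatives that kept the 2-fold rule and the CPM minimum of 1, none of which addressed the overlap of Trim65 with Trim47. The calls of Trim66 and Trim40 held too, except where the whole interval had to lie beyond 2-fold. The interval began at 1.94 for Trim66 and ended at 0.524 for Trim40. The calls of Trim47 and Trim54 were lost when ratios were centred on genes of like GC content, with log2 ratios of 0.84 and 0.95. The exons of both genes are rich in GC, at 64.1% of the longest transcript of Trim47 and 59.9% of that of Trim54.

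The chromosome 7 cluster holds the mouse relatives of primate TRIM5, the retrovirus restriction factor, and no member of it was called. It was taken as a run of members with at most 1 Mb between neighbours, and 10 members lay in 289 kb (104218793 to 104507849), with no gap over 14.0 kb. Of these, 7 were tested, 6 had a ratio above 1, and the interval was above 1 in the same number. Their ratios ran from 0.903 to 1.95, with a median of 1.22 (log2 0.29). The summed level of the cluster was 161 CPM in control and 233 CPM in DAC. Of the 4 other genes within this span, 1 was tested and was not called. Among all tested genes 10.8% were called higher and 5.29% lower, and 7 members are too few to set against these shares.

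Trim30a, which restrains Toll-like receptor signalling in mouse by degrading TAB2 and TAB3, carried most of the cluster's RNA. It had 2694 counts in control and 5385 in DAC, 84.1 and 143 CPM, a ratio of 1.70 (1.63 to 1.78). Its neighbour Trim30d had 19.7 and 23.6 CPM, a ratio of 1.20 (1.08 to 1.33). Trim30c had 24 and 55 counts, for a ratio of 1.95 (1.19 to 3.30), and Trim30b only 17 and 15. The Trim30 genes thus all had low or moderate ratios, with that of Trim30b below 1 on few counts. Trim6, which makes free ubiquitin chains that activate IKKε, had 144 and 321 counts, 4.50 and 8.54 CPM, a ratio of 1.90 (1.56 to 2.33). Trim6 and Trim30c lay just under the 2-fold threshold. After centring on GC content, Trim6, Trim30c and Trim30a passed it, with log2 ratios of 1.11, 1.22 and 1.10.

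The rest of the cluster was closer to a ratio of 1. Trim34a had 525 counts in control and 556 in DAC, a ratio of 0.903 (0.800 to 1.02), and Trim34b had 440 and 630, a ratio of 1.22 (1.08 to 1.38). Trim12c had 671 and 892 counts, a ratio of 1.13 (1.02 to 1.25). Trim5 had 17 and 16 counts and Trim12a 0 and 6. These genes are recent copies of each other, and their counts are uncertain where the counting could split or share reads. Of the 50-base stretches of the longest coding transcript, 61.9% in Trim34a, 59.0% in Trim34b, 38.4% in Trim5 and 34.4% in Trim12c were found in another gene too. Matches on either strand were counted. For Trim34a, 41.3% were found in Trim34b and 20.9% in Gm47248, which overlaps its exons on the opposite strand. In Trim30a and Trim30d the shares were 6.53% and 8.29%.

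The first 120 coding bases, which begin the RING finger region, show how near these copies are. Sequences are from the GENCODE M21 transcripts, and capitals mark bases that differ from the first gene of each set.
Trim34a: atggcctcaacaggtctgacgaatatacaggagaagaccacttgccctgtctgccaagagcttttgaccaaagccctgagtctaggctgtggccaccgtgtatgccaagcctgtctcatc
Trim34b: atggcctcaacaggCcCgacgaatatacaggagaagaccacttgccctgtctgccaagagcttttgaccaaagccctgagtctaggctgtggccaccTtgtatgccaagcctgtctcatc
Trim12c: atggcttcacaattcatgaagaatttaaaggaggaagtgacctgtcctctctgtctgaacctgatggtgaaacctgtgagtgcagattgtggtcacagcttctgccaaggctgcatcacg
Trim5: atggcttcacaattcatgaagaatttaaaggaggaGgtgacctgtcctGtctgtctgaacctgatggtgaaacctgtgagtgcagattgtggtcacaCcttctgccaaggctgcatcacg
Trim12a: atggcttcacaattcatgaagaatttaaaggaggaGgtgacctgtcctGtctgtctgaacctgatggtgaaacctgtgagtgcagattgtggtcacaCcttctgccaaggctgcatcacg
Trim30a: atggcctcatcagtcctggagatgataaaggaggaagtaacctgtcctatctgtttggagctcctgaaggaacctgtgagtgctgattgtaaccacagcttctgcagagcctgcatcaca
Trim30d: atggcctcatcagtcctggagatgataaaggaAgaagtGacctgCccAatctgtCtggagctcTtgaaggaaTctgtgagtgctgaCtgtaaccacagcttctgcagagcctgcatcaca
Trim34b differed from Trim34a at 3 of these bases, and over the aligned coding sequence the pair was 98.2% identical. Trim5 and Trim12a carried the same bases as each other and differed from Trim12c at 3. Over the coding sequence Trim12c was 96.6% identical to Trim5. Trim30d differed from Trim30a at 8 of the 120 bases, with 90.2% identity over the coding sequence, so that the Trim30 genes can be told apart more readily than the others.

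**Figure D3:**
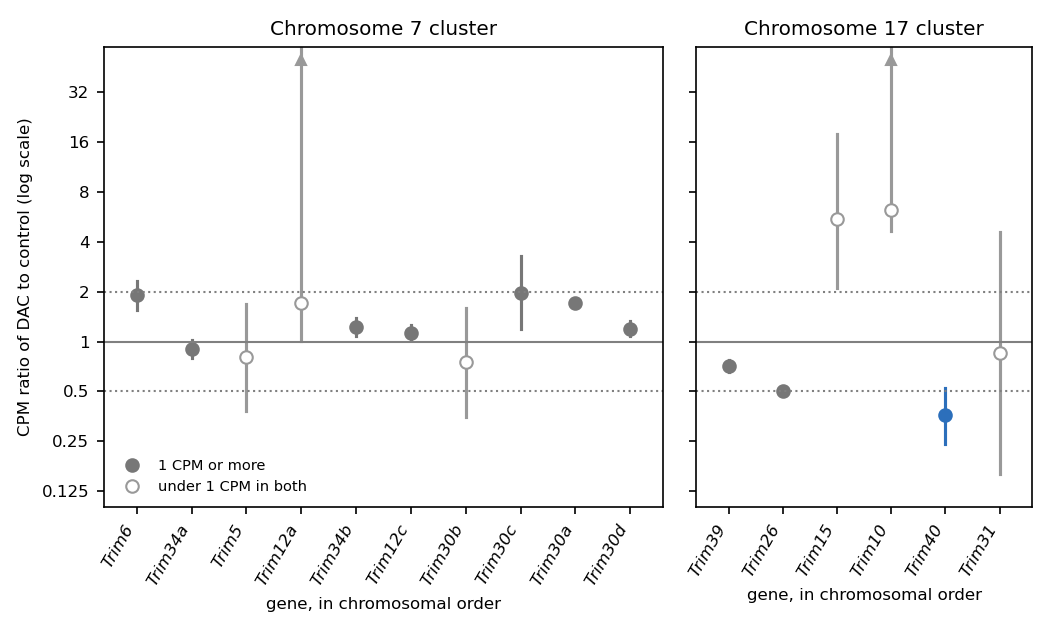
CPM ratio of DAC to control on a log scale for each TRIM gene of the chromosome 7 and chromosome 17 clusters in chromosomal order, with 95% counting intervals as bars, dotted lines at 2-fold and arrows where an interval is open because the control had 0 counts. Tested genes of chromosome 7 lie between 0.903 and 1.95, those of chromosome 17 between 0.359 and 0.714 (Trim40, called lower, in blue), and the genes under 1 CPM are open points.

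On chromosome 17, near the class I major histocompatibility genes, all 3 tested members had lower CPM in DAC. The cluster held 6 members in 651 kb (36258873 to 36910214), with Trim39 565 kb away from the other 5. Trim40, which restrains NF-κB by attaching NEDD8 to IKKγ in the gut, had 95 counts in control and 40 in DAC, 2.97 and 1.06 CPM, a ratio of 0.359 (0.242 to 0.524). It lies at 36881598 to 36890123 on the minus strand. Trim26, which directs degradation of IRF3, had 3885 and 2300 counts, 121 and 61.2 CPM, a ratio of 0.505 (0.479 to 0.531). It lay just outside the threshold and passed it after centring on GC content (log2 -1.10). Trim39, which stabilises MOAP1 in apoptosis, had 41.2 and 29.4 CPM, a ratio of 0.714 (0.659 to 0.774).

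Trim15 and Trim10, which lie between Trim26 and Trim40, did not share that direction. Trim15, a focal adhesion protein, had 5 counts in control and 32 in DAC, a ratio of 5.45 (2.11 to 17.9). Trim10, known from red cell precursors, had 0 and 22 counts, a ratio of 6.25 against a floor of 3 control counts, with an interval from 4.67 upward. Trim31, an E3 ligase of the gut that acts on MAVS, had 4 in each library, a ratio of 0.852 (0.159 to 4.58). So within the same stretch of the chromosome, Trim26 and Trim40 had fewer counts in DAC, and Trim15 and Trim10 had more. All 3 of the scarce genes were under the CPM minimum. The summed level of the cluster was 166 CPM in control and 93.2 CPM in DAC, nearly all of it Trim26 and Trim39. Of 5 other genes in the span, 1 was tested, with a ratio of 1.03. The median log2 ratio of the 3 tested members was -0.99. Without a CPM minimum, over all 6 members, it was -0.36, and 2 members were then called higher.

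The 39 members outside both clusters held all 5 calls of higher expression among 30 tested (16.7%, beside 10.8% of all tested genes). The clusters held only 7 and 3 tested members, too few to set against that share. Outside the clusters the median log2 ratio was 0.29. The chromosome 7 cluster had the same median, but not under every alternative. The medians were 0.62 for the cluster and 0.22 outside after centring on GC content, and 0.85 and 0.22 without members that share over 10% of their sequence. The difference between the chromosome 17 cluster and the other members was not tested, since single genes are not replicates.

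Trim25, Trim56 and Trim35, the most counted members, differed little between the libraries. Trim25, which attaches ubiquitin to RIG-I and also ISG15 to other proteins, had 8382 counts in control and 11657 in DAC, 262 and 310 CPM, a ratio of 1.19 (1.15 to 1.22). Trim56, which promotes STING and cGAS signalling, had 300 and 283 CPM, a ratio of 0.945 (0.919 to 0.971). Trim35, which was found in blood cell lineage switching, had 299 and 254 CPM. The ratios of these genes left 1 outside their counting intervals but were far from 2-fold. Trim21 (Ro52), the cytosolic antibody receptor, had 672 and 1204 counts, a ratio of 1.53 (1.39 to 1.68). Trim8, which destabilises SOCS1, had 102 and 152 CPM, a ratio of 1.49 (1.43 to 1.56). Trim14, a MAVS adaptor without a RING finger, had 205 and 398 counts, a ratio of 1.65 (1.39 to 1.97). For Trim14, 38.0% of the exons overlap genes on the opposite strand. One of these is Nans, which was higher in DAC with 1251 and 3842 counts. Trim14 thus had a ratio above 1 beside a more abundant overlapping gene that moved the same way, and the part of Nans reads in its count was not tested.

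Among the other PRY-SPRY members, ratios lay on both sides of 1 and none passed the rule. Trim27 (RFP), first known from a fusion with RET, had 62.2 CPM in control and 78.5 CPM in DAC. Trim11 had 108 and 86.3 CPM, and Trim41 had 30.2 and 31.2 CPM. Trim68, a coactivator of the androgen receptor, had 16.4 and 16.1 CPM. In this set Trim11 was the one with a ratio clearly below 1, at 0.800 (0.762 to 0.840). Trim7, which binds glycogenin, had 57 and 112 counts, a ratio of 1.67 (1.21 to 2.35). Of its exons, 8.31% overlap Gm12184 and Gm16170 on the opposite strand, and Gm12184 had 1630 and 1865 counts. Over the whole PRY-SPRY class, 20 of 31 members were tested and 2 were called higher, with a median log2 ratio of 0.27.

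Members with other C-terminal regions filled the range between. Trim23, which ends in an ARF-type GTPase domain, had 979 counts in control and 599 in DAC, 30.6 and 15.9 CPM, a ratio of 0.521 (0.470 to 0.578). Together with Trim26 it was nearest to being called lower. Trim44, which has a ubiquitin protease-like zinc finger in place of the RING, had 87.9 and 65.7 CPM. Trim59 and Trim13, which are anchored in membranes, had ratios of 1.27 and 1.30. For Trim59 the levels were 62.2 and 79.1 CPM, and Trim13 had 98 and 149 counts. Trim37, a peroxisomal and centrosomal ligase with a MATH domain, was level at 48.7 and 49.1 CPM. Trim46, which bundles microtubules at the start of the axon, had 20.9 and 29.7 CPM, and Trim16, which binds galectin-3 at damaged lysosomes, had 19.0 and 26.7 CPM. Both ratios were close to 1.4. Trim45, with a filamin domain, had 291 and 404 counts.

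The 15 members under 1 CPM in both libraries had at most 36 counts. In 5 of them (33.3%) the counting interval lay above 1 and in none below, beside 13.9% above and 6.20% below for all 10678 genes under the minimum. Besides Trim15, Trim10 and Trim12a these were Trim69 and Trim17. Trim69, first found in testis, had 5 counts in control and 36 in DAC, 0.156 and 0.958 CPM, a ratio of 6.14 with a lower bound of 2.40. It lay just under the CPM minimum. Trim17, a testis and neuron E3 ligase, had 2 and 11 counts, for a ratio of 4.69 (1.02 to 43.5). Part of its exons overlap Hist3h2a, which was lower in DAC. The Trim43 genes, expressed in preimplantation embryos, are near-identical copies and had 14 and 18 (Trim43a), 4 and 11 (Trim43b) and 31 and 28 counts (Trim43c). Trim67 and Trim29 had 0 and 3 counts each and Trim75 had 3 and 0, which is no more than a count of 0 allows. A count of 0 left room for up to 0.0937 CPM in control and 0.0798 CPM in DAC.

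Promoter sequence was compared because DAC acts on the methylation of CpG sites, although methylation itself was not analysed here. The 250 bases before the start site were taken from RefSeq (GRCm38.p6) for 43 of the 55 members, 32 of them tested. No entry matched Trim65. The ratio of observed to expected CpG had a median of 0.50 in the tested members, 0.74 in all 9514 tested genes with a promoter and 0.52 in all genes called higher. Promoters at 0.6 or more made up 46.9% (15 of 32) of those of tested members and 68.9% of those of all tested genes. In the 11 members under the CPM minimum the median was 0.14. The promoters of tested TRIM genes thus had a lower median than those of all tested genes. The 7 tested members of the chromosome 7 cluster, several of them copies of each other, all stood at 0.47 or less. The rest of the family was not summarised apart from them.

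The called members fell on both sides of 0.6. Trim71 stood at 0.69 and Trim47 at 0.72. Trim54 stood at 0.12, Trim66 at 0.22 and Trim40, which was lower in DAC, at 0.23. Across the 32 tested members Spearman's rho between the CpG ratio and the log2 ratio was -0.34. It is given as a description of genes that share 2 libraries and differ in GC content and abundance. These genes include the copies of the chromosome 7 cluster and are not independent of each other. The promoter matched to Trim47 begins 16975 bases from the start of the GENCODE gene. The promoters of Trim71, Trim66 and Trim40 are shown for this contrast, with CpG sites in capitals.
Trim71, chr9:114564370-114564619, minus strand: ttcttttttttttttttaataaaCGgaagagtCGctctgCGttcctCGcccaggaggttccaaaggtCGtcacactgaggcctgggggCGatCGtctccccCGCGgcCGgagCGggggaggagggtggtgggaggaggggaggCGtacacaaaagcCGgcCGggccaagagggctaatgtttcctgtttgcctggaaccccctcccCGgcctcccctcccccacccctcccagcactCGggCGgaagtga
Trim66, chr7:109508135-109508384, minus strand: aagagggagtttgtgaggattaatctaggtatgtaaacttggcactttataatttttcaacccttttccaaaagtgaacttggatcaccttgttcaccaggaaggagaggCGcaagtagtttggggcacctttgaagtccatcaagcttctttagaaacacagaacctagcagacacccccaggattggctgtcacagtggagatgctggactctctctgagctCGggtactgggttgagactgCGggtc
Trim40, chr17:36890126-36890375, minus strand: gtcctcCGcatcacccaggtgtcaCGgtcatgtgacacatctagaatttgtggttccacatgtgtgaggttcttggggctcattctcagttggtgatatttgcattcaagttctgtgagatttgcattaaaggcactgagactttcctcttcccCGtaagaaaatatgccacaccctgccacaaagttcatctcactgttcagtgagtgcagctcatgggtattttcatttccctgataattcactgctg
The Trim71 window holds 17 CpG sites and each of the others 3, while Trim71 and Trim66 were both called higher.

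**Figure D4:**
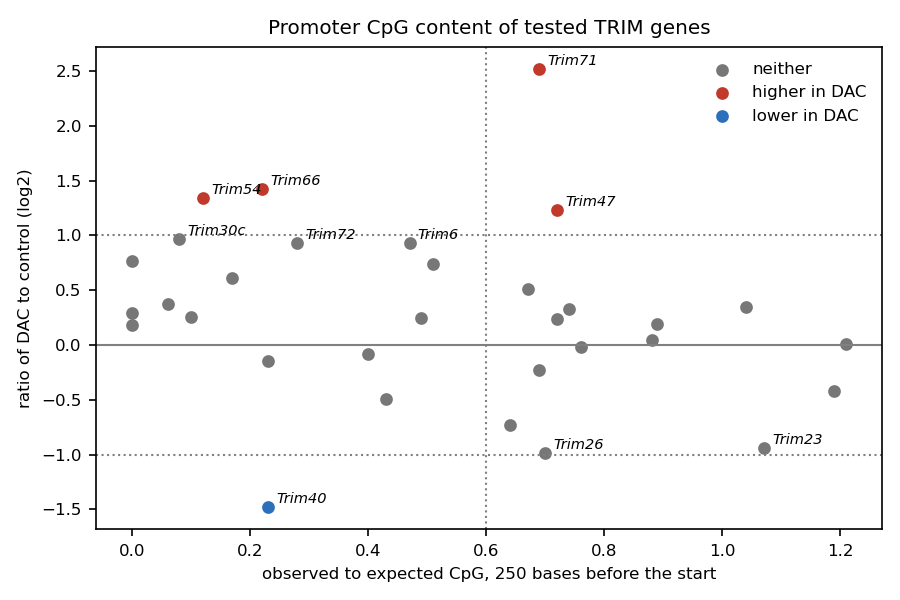
Log2 ratio of DAC to control against the observed to expected CpG ratio of the 250 bases before the start, for the 32 tested TRIM genes with a RefSeq promoter, 1 point a gene, with dotted lines at 2-fold and at a CpG ratio of 0.6. Genes called higher lie at CpG ratios of 0.12 and 0.22 (Trim54 and Trim66) and of 0.69 and 0.72 (Trim71 and Trim47), and Trim40, called lower, lies at 0.23.

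Many TRIM genes are induced by interferon through the ISRE, a promoter element of interferon-stimulated genes. Its letters GAAANNGAAA were searched on both strands of the same 250 bases. They were found in 4 of 32 promoters of tested members (12.5%), compared with 266 of 9514 (2.80%) of all tested genes. These members were Trim12c, Trim30a, Trim30d and Trim26, and with Trim5, under the minimum, 5 of 43 (11.6%). The 60 bases around each ISRE match are shown in the direction of the gene, with the match in capitals, where the letters of the element read on the opposite strand.
Trim30a, chr7:104465195-104465254, minus strand: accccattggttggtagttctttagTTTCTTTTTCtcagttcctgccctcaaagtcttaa
Trim30d, chr7:104507856-104507915, minus strand: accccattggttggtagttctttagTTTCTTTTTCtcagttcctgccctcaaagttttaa
Trim12c, chr7:104353350-104353409, minus strand: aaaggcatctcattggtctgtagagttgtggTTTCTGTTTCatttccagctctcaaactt
Trim5, chr7:104288121-104288180, minus strand: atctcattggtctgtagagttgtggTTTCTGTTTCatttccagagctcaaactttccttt
Trim26, chr17:36836961-36837020, plus strand: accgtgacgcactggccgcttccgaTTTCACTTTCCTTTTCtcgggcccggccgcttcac
Trim26 carried 2 overlapping matches. Trim30a and Trim30d carried the same match letters in near-identical windows, and so did the copies Trim12c and Trim5. The matches of the family are therefore not independent of each other. Of the 5 genes, Trim30a, Trim30d and Trim12c had ratios between 1.13 and 1.70, and Trim26 had a ratio of 0.505, so that genes with these letters lay on both sides of 1. A match of letters is a description and not a shown binding site.

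The partners of TRIM proteins were read from lists of genes. Of 18 E1, E2 and ubiquitin genes, which supply TRIM ligases with ubiquitin, none was called higher and 1 was lower (5.56%). Among all tested genes, 10.8% were called higher and 5.29% lower. The lower gene of the list was Ube2g2, with 92.2 CPM in control and 39.9 CPM in DAC. The main E2 enzymes of TRIM ligases, Ube2n and Ube2d3, had ratios of 1.13 and 1.02. The ISG15 system, in which Trim25 acts as a ligase, held 3 higher genes of 5. The E1 gene Uba7 had 11.1 and 40.5 CPM, the E2 gene Ube2l6 had 639 and 2707 counts, and the mouse ISG15 ligase gene Herc6 had 45.0 and 94.3 CPM. Isg15 itself had a ratio of 1.41 and its protease gene Usp18 one of 1.52, neither of them called.

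Of 22 genes for sensors, adaptors and factors on which TRIM proteins act, 4 were higher (18.2%) and none lower. The shares of all tested genes were 10.8% and 5.29%. Zbp1, which senses left-handed double helices, had 8.65 CPM in control and 91.9 CPM in DAC, a ratio of 10.6 (9.40 to 12.1). Irf7 had a ratio of 3.03, Tmem173 (STING) of 2.10 and Stat2 of 2.06. The RNA sensor genes Ddx58 (RIG-I, a Trim25 substrate) and Ifih1 (MDA5, a Trim65 substrate) had ratios of 1.55 and 1.32. At the other end, Traf6 stood at 0.613, Tab2, a Trim30a target in mouse, at 0.635 and Cgas at 0.658. The median log2 ratio of this list was 0.25, the same as that of the TRIM genes. Of 12 listed genes with a RING, B-box or related architecture and other names, 8 had values, 4 were tested and none was called. Among them Pml, the core of nuclear bodies, had 60.7 and 65.0 CPM, and Mid1, a microtubule-binding ligase, had 19.6 and 14.4 CPM.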

How the data were processed

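RNA-seq of CT26 cells was analysed, with 1 DAC library and 1 control library. The authors deposited whole-number counts per Ensembl gene and did not normalize them. According to the submitters' processing notes, reads were handled with STAR 2.5.3a and StringTie 1.3.1c on mm10, beside Trim Galore, FastQC, DESeq and Cufflinks, whereas the methods of the study name other software. The sources used here do not say which of them made the counts or whether counting used strand. Symbols and coordinates came from GENCODE M21 (24122 identifiers matched, 101 did not).

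The DAC library held 35163420 counts and the control 34221886. TMM factors (1.07 and 0.936) came from edgeR 4.0.16, and ratios, intervals and plots from Python 3.11.15, numpy 2.4.6, pandas 2.3.3, scipy 1.17.1 and matplotlib 3.10.9. The rule was applied to all genes and read for the members. It was also run on simulated counts, in which the changed genes were well counted. That simulation held counting error only, so it says nothing about the spread between cultures or about scarce genes. A ratio against 0 counts was taken against 3 counts. A cluster was a run of at least 4 members on chromosome 7 or 17. Every tested member was placed, with values in both libraries for called members and those over 20 CPM, and called genes of the partner lists were named. Other partner genes and markers were named after their values were seen. Members and lists were chosen with earlier results of these data known. Alternatives were scaling by upper-quartile factors, by size factors of DESeq2 1.42.0 or by library totals, centring on 20 bins of GC content, other CPM minimums and folds, a wider interval, another floor, and leaving out members with over 10% shared 50-base stretches. Methylation, tumor and mouse experiments were not analysed here. Of the partner lists, 1 gene is not reported here, and RING and B-box genes without values in the tables used were not analysed.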

Additional observations from a re-analysis of the deposited data

How the results depend on the processing

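No called gene changed its direction under the alternatives run. Uncalled ratios near 1 did change sign. With library totals the log2 ratio was 0.11 for Trim56, 0.17 for Trim68, 0.04 for Trim34a and 0.18 for the median of all genes. After centring on GC content it was -0.24 for Trim41, -0.21 for Trim3 and 0.04 for Trim34a. No paired analysis was possible because each group holds 1 library. With library totals in place of TMM, every log2 ratio rose by 0.19. Of 41 tested TRIM genes 9 were then higher, and 2 of them lay in the chromosome 7 cluster. The genes gained included Trim6 (log2 1.12), Trim30c (1.16) and Trim72 (1.12). Centring on GC content left 3 higher genes outside the clusters, gave 3 in the chromosome 7 cluster (Trim6, Trim30c and Trim30a, at 1.11, 1.22 and 1.10), and made 2 TRIM genes lower, both on chromosome 17, with Trim26 at -1.10. A CPM minimum of 5 left 2 higher genes of 32 tested members, both outside the clusters, and 0 lower, also on chromosome 17. Without a minimum, 9 of 55 TRIM genes were higher, 2 of them on chromosome 17, where the median log2 ratio became -0.36. A fold of 1.5 gave 12 higher and 5 lower TRIM genes of 40 tested, where 19.3% and 15.2% of all tested genes were called. Of the TRIM genes called at this fold, 9 higher and 3 lower lay outside the clusters, 3 higher on chromosome 7 and 2 lower on chromosome 17. A fold of 4 left 2 higher, both outside the clusters, and 0 lower, also on chromosome 17. An interval wholly beyond 2-fold left 4 higher TRIM genes, with Trim66 lost, and 0 lower, also on chromosome 17. For all genes the calls were 684 higher and 450 lower at a CPM minimum of 5, 2672 and 1239 without one, 2612 and 2059 at a fold of 1.5, 579 and 112 at a fold of 4, and 977 and 403 with the interval beyond 2-fold. They were 1889 (13.9%) and 458 (3.37%) with library totals, and 1397 (10.3%) and 592 (4.37%) after centring on GC content. DESeq2 size factors, upper-quartile factors, an interval from counts divided by 3, a floor of 1 count and leaving out members with shared sequence moved none of the counts of calls by over 1.5 times. Depth limited the members under 1 CPM, whose intervals spanned several fold, and differences between cultures could not be measured.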
